A study of Homo sapiens with 8 samples.

Results

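The G protein gamma subunits described here are the products of 10 human genes, GNG2, GNG3, GNG4, GNG5, GNG7, GNG8, GNG10, GNG11, GNG12 and GNG13. They were taken from a list of gene symbols, and they are 10 of the 57500 genes in the deposited raw counts, of which 40246 had at least 1 count. GNG4 was put forward because it was among the strongest decreases after treatment, so its values are given as a description without a test. RNAseq was measured in HEK293T cells, an established line derived from human embryonic kidney that makes SV40 large T antigen. A group of 4 libraries came from cells exposed to 100 µM DZNep for 48 h and a group of 4 from cells given vehicle (Control), with replicates numbered 1 to 4 in each group. DZNep (3-deazaneplanocin A) resembles adenosine and blocks AHCY, the enzyme that clears S-adenosylhomocysteine, the product of methyl transfer from S-adenosylmethionine. All cells are of this 1 line, so the results describe 1 genetic background at 1 dose and 1 time. Of the 10 genes, 9 passed the filter on low counts, and GNG8 did not.

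Heterotrimeric G proteins carry signals from receptors in the plasma membrane to enzymes and ion channels. The alpha subunit binds GTP, and the beta and gamma subunits form a dimer that does not come apart under physiological conditions and acts on its own effectors. Gamma subunits are small proteins whose tail ends in a CaaX box, a cysteine followed by 3 further residues. A prenyl lipid is attached to that cysteine, RCE1 removes the residues behind it, and ICMT, which uses S-adenosylmethionine, methylates the new end. The last residue of the box guides the choice of lipid, with leucine leading to a geranylgeranyl and serine to a farnesyl group.

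The ends of the coding sequences show this box at the level of the codons and separate the members by the lipid they are expected to carry. Each line gives the last 4 codons and the stop codon of the canonical transcript in GENCODE's annotation of GRCh38, 5′ to 3′ on the coding strand, with the cysteine codon and the codon of the last residue in capitals.
GNG2: TGTgccatcCTTtaa
GNG3: TGTgctctcCTCtga
GNG4: TGTaccattCTCtaa
GNG5: TGTtcctttTTGtag
GNG7: TGTattattTTAtaa
GNG8: TGTgttctgCTCtga
GNG10: TGTgctttaCTCtga
GNG11: TGTgttattTCAtaa
GNG12: TGCatcatcTTAtag
GNG13: TGCaccatcCTGtga
GNGT1: TGTgtgattTCAtaa
GNGT2: TGTctgataAGCtga
The stretch lies at chr14:51966673-51966687 (+) for GNG2, at chr1:235552109-235552123 (-) for GNG4, at chr7:93926202-93926216 (+) for GNG11, at chr1:67705451-67705465 (-) for GNG12 and at chr16:798719-798733 (-) for GNG13, each within a single coding exon. GNG11 is the member that ends in a serine codon, as do the genes of the rod and cone photoreceptors, GNGT1 and GNGT2. The other members end in a leucine codon. The coding sequences are 204 (GNG13) to 228 bp (GNG3 and GNG4) long. GNG4 was most like GNG2, with 72.9% identical aligned bases, and like GNG3, with 70.3%, whereas GNG11 and GNG13 shared 48.9%, the lowest value of the 10 genes.

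The library totals ranged from 25043058 to 44902779 counts, and 0.0295% to 0.0344% of the counts of a library fell on the 10 members. Mitochondrial transcripts took 7.76%, 3.02%, 3.16% and 13.7% of the counts of Control replicates 1 to 4 and 7.04%, 4.25%, 4.44% and 10.1% of those of DZNep replicates 1 to 4, so replicates 1 and 4 stood apart from 2 and 3 in both groups. All 7 HEK293T markers passed the filter, and their summed normalized count was 28986 to 52417 (Control) and 36194 to 47773 (DZNep). Of them, the keratin gene KRT8 was called higher. The list of blood cell markers held 4 leukocyte genes and the erythroid gene HBB, which had no count in any library. CD3E, of T cells, had no count in the Control libraries and stood at 8.16 to 40.5 in the DZNep libraries, and the 5 genes summed to 148 to 304 (Control) and 159 to 354 (DZNep). The 5 fibroblast markers summed to 3428 to 6940 (Control) and 2849 to 7062 (DZNep). Of them, LUM was called higher, from 100 ± 21.4 to 433 ± 80.5 (log2 fold change 2.08, adjusted p = 6.24e-05), and COL1A2 stood at 15.3 in DZNep replicate 2 against 1072 to 1647 in the other DZNep libraries. The 5 markers of glia and neurons summed to 1375 to 1750 (Control) and 1280 to 1594 (DZNep), with GFAP called higher and MBP and RBFOX3 called lower. The part of these differences in the results for the gamma subunits was not tested.

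Across the family, GNG4 was much lower in the treated cells, while GNG2, GNG3 and GNG13 rose and no other member was called lower. A gene was called when its adjusted p-value in edgeR's quasi-likelihood test, adjusted over the 19171 genes tested, was under 0.05 and its absolute log2 fold change was over 1. Of the 8 tested members other than GNG4, 3 were called higher and 0 lower. Over all genes tested, 10.6% were called higher and 13.5% lower. Of the 3, GNG3 and GNG13 were low in the Control libraries, with 4 and 5 counts in Control replicate 1. A filter on at least 10 counts in every library removed both and left 1 member, GNG2, called higher, beside 1141 of 15870 genes. At an unadjusted p-value under 0.05, 5 of the 8 were higher and 1 was lower, beside 22.9% and 26.0% of all genes, and DESeq2 called 3 higher and 0 lower. The median log2 fold change of the 8 was 0.86, beside -0.03 over all genes tested. Values below are normalized counts, the counts divided by the size factor of the library, and errors are SDs over 4 libraries.

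**Figure D1:**
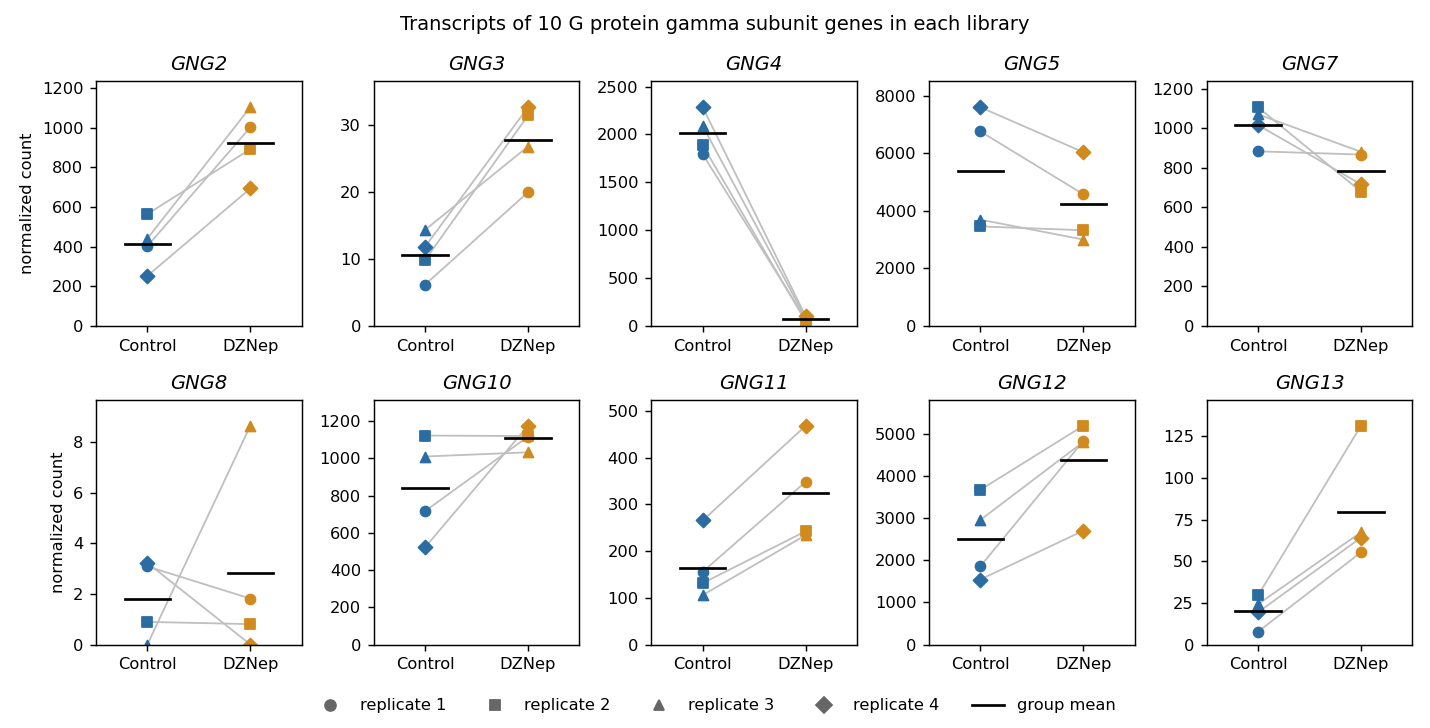
Normalized count (vertical axes, linear, starting at 0) of each gamma subunit gene in the 4 Control (blue) and 4 DZNep libraries (orange), with a symbol for each replicate number, grey lines between libraries of the same number and black bars for the group means. GNG4 lies at 1793 to 2284 without and at 47.5 to 101 with DZNep, while GNG2, GNG3 and GNG13 lie higher in every DZNep than in any Control library.

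GNG4 (ENSG00000168243) encodes a gamma subunit known mainly from the brain and lies on chromosome 1 of GRCh38 from 235547685 to 235650754, on the minus strand. Its normalized count was 1793, 1887, 2089 and 2284 in Control replicates 1 to 4 and 69.8, 47.5, 82.9 and 101 in DZNep replicates 1 to 4. Every DZNep library thus lay far below every Control library, and the highest DZNep and the highest Control value both came from replicate 4. The mean went from 2013 ± 219 to 75.4 ± 22.6, a ratio of 26.7, and the log2 fold change was -4.77 (SE 0.24). Within the pairs of equal replicate number, it was -4.68, -5.31, -4.66 and -4.50. Among 13624 genes whose average log2 CPM was 1 or more, GNG4 had the 5th lowest log2 fold change. No annotated exon of another gene overlaps its exons. In these bulk libraries, fewer cells with the transcript and less transcript per cell cannot be told apart.

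The RefSeq promoter window of GNG4, 250 bases before to 50 after the start, is shown as that of the member with the largest difference. It lies at chr1:235650559-235650858 of GRCh38.p14 on the minus strand and is printed 5′ to 3′ with each CpG dinucleotide in capitals.
GNG4 promoter: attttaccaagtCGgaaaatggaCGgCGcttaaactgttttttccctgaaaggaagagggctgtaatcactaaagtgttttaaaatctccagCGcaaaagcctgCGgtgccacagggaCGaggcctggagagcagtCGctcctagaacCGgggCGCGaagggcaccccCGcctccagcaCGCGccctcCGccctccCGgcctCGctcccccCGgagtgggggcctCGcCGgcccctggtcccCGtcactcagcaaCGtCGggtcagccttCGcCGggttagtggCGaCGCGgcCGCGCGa
The window holds 30 CpG dinucleotides, more than 77.6% of 35116 RefSeq promoters, whose median is 14, and 64.0% of its bases are G or C. Read on both strands, it contains the letters of a GC box (GGGCGG), found in 45.0% of all promoters, and of the core of a cAMP response element (TGACG), found in 24.6%, but neither TATAAA (11.5%) nor CCAAT (34.6%). Among the members, GNG7 had the most CpG dinucleotides, 45, followed by GNG10 with 35, GNG4 with 30, GNG12 with 28, GNG5 with 23 and GNG8 with 19. GNG13 had 12, GNG11 9 and GNG3 6, and the 5 windows of GNG2 held between 1 and 7. The 3 members called higher were therefore below the median of all promoters, as was GNG11, which was not called. This is a description of these windows that was not tested.

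The genes whose centred log2(CPM + 0.5) profile over the 8 libraries lay closest to that of GNG4 were LRP11, PACS2 and PDE9A, among 12394 protein-coding genes compared. LRP11, of the low density lipoprotein receptor related proteins, had a Euclidean distance of 0.862 and went from 2973 ± 491 to 161 ± 22.1. PACS2, a sorting protein of the secretory pathway, had a distance of 0.967 and went from 1774 ± 163 to 102 ± 15.8. PDE9A, a phosphodiesterase that hydrolyses cGMP, had a distance of 1.07 and went from 1233 ± 230 to 74.3 ± 21.6. Likeness here is over 8 libraries of 2 groups and rests mainly on the shared decrease.

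GNG2 (ENSG00000186469, chromosome 14, 51826195 to 51979342, plus strand) encodes a broadly expressed gamma subunit that is often used with GNB1 in reconstituted dimers. Its normalized count was 402, 564, 441 and 252 in Control replicates 1 to 4 and 1001, 891, 1102 and 693 in DZNep replicates 1 to 4. The groups did not overlap, and replicate 4 was the lowest library of each. The mean rose from 415 ± 128 to 922 ± 175, with a log2 fold change of 1.13 (SE 0.24, adjusted p = 0.00438, edgeR). Without Control replicate 4 the log2 fold change was 0.94 and no longer over 1, with an adjusted p of 0.00489.

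GNG3 (ENSG00000162188, chromosome 11, 62707676 to 62709201, plus strand) encodes a gamma subunit of neurons and was low in these cells. It stood at 6.17, 9.82, 14.3 and 11.8 in the Control and at 20, 31.4, 26.8 and 32.6 in the DZNep replicates, from 4 to 16 counts in a Control and from 22 to 39 in a DZNep library. The groups did not overlap. The mean rose from 10.5 ± 3.45 to 27.7 ± 5.74, with a log2 fold change of 1.33 (SE 0.34, adjusted p = 0.0106, edgeR). Of its exon bases, 51.7% also belong to BSCL2, the seipin gene on the opposite strand, which went from 196 ± 22.6 to 301 ± 22.2 (log2 fold change 0.59, adjusted p = 0.0121). The strandedness of the counting is not given in the sources used here, so whether reads in these bases were assigned to GNG3 or BSCL2 or left uncounted is not known.

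GNG13 (ENSG00000127588, chromosome 16, 798041 to 800734, minus strand) encodes a gamma subunit of taste receptor cells and retinal bipolar cells. It had the largest increase of the members. Control replicates 1 to 4 stood at 7.71, 29.5, 24.2 and 19.3 and DZNep replicates 1 to 4 at 55.3, 131, 67.4 and 64.1. The groups did not overlap, although DZNep replicate 2 lay well above the other DZNep libraries and Control replicate 1, the shallowest library, well below the other Controls. The mean rose from 20.2 ± 9.28 to 79.5 ± 34.9, with a log2 fold change of 1.91 (SE 0.41, adjusted p = 0.00438, edgeR), and the log2 fold change stayed between 1.57 and 2.13 with any 1 library left out. CHTF18, a gene of the clamp loader at replication forks, shares 19.7% of the exon bases of GNG13 from the opposite strand and moved the other way, from 1648 ± 294 to 1082 ± 90.0 (log2 fold change -0.64, adjusted p = 0.00864). The promoter window of GNG13, at chr16:800685-800984 of GRCh38.p14 on the minus strand, is printed beside that of GNG4 as the window of the member with the largest increase, again with CpG dinucleotides in capitals.
GNG13 promoter: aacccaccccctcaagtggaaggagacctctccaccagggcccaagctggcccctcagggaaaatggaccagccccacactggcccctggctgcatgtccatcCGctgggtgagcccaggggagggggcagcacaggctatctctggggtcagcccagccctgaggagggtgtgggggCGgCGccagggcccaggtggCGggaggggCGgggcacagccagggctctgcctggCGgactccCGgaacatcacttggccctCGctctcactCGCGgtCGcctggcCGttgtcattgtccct
In this window 69.3% of the bases are G or C, and it holds 12 CpG dinucleotides beside the 30 of GNG4. It contains GGGCGG and none of the other 3 motifs.

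GNG11 and GNG12 were also higher in each of the 4 pairs but were not called. GNG11 (ENSG00000127920, chromosome 7, 93921735 to 93928610, plus strand), the member with a serine codon at its end, stood at 156, 131, 106 and 265 in the Control and at 348, 242, 234 and 468 in the DZNep replicates. Replicate 4 was the highest library of each group, so that Control replicate 4 lay above 2 DZNep libraries. The mean went from 165 ± 70.3 to 323 ± 110, with a log2 fold change of 0.94 (SE 0.32, adjusted p = 0.0387, edgeR), past the threshold on p but not on the fold. The call depended on the library left out. Without Control replicate 4 the log2 fold change was 1.27 (adjusted p = 0.00564), without DZNep replicate 2 it was 1.07 (adjusted p = 0.0394) and without DZNep replicate 3 it was 1.08 (adjusted p = 0.0378), each past both thresholds. Without any other library GNG11 missed both thresholds, with adjusted p-values of 0.0881, 0.0734 and 0.0933 without Control replicates 1, 2 and 3 and of 0.0810 and 0.0957 without DZNep replicates 1 and 4.

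GNG12 (ENSG00000172380, chromosome 1, 67701475 to 67833467, minus strand) encodes a widely expressed gamma subunit. It stood at 1853, 3666, 2952 and 1541 in the Control and at 4825, 5184, 4800 and 2698 in the DZNep replicates. Replicate 4 was the lowest library of each group, the reverse of GNG11, and DZNep replicate 4 lay below Control replicates 2 and 3. The mean went from 2503 ± 984 to 4377 ± 1133, with a log2 fold change of 0.78 (SE 0.30, adjusted p = 0.0587, edgeR, and 0.0281 with DESeq2). Without Control replicate 2 it was 1.02 with an adjusted p of 0.0171, past both thresholds. GNG12-AS1, a long noncoding RNA gene whose start lies 1174 bp away on the opposite strand and which shares no annotated exon base with GNG12, fell from 59.0 ± 13.4 to 27.9 ± 8.59 (log2 fold change -1.11, adjusted p = 0.0139).

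The remaining 3 tested members differed less. GNG5 (ENSG00000174021, chromosome 1, 84498323 to 84506581, minus strand), a broadly expressed member, stood at 6757, 3459, 3692 and 7597 in the Control and at 4577, 3326, 3004 and 6038 in the DZNep replicates. Replicates 1 and 4 were high in both groups, as was their mitochondrial share, and each DZNep library lay below the Control library of its number. The log2 fold change was -0.37 with a 95% interval from -1.06 to 0.31 (adjusted p = 0.363, edgeR). GNG7 (ENSG00000176533, chromosome 19, 2511219 to 2702694, minus strand), best known from the striatum where it pairs with the olfactory-type alpha subunit, stood at 883, 1106, 1070 and 1016 in the Control and at 867, 680, 881 and 717 in the DZNep replicates. All DZNep libraries lay below all Control libraries, by a narrow margin between 881 and 883, and the log2 fold change was -0.40 (SE 0.15, adjusted p = 0.0532, edgeR, and 0.0332 with DESeq2). GNG10 (ENSG00000242616, chromosome 9, 111661605 to 111670226, plus strand) stood at 717, 1123, 1010 and 522 in the Control and at 1117, 1120, 1033 and 1176 in the DZNep replicates. The DZNep libraries lay within the upper part of the Control range or just above it, and the log2 fold change was 0.37 with a 95% interval from -0.12 to 0.86 (adjusted p = 0.208, edgeR).

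GNG8 (ENSG00000167414, chromosome 19, 46633953 to 46636541, minus strand), a subunit of olfactory and vomeronasal neurons, had 2, 1, 0 and 3 counts in Control replicates 1 to 4 and 2, 1, 10 and 0 counts in DZNep replicates 1 to 4. These are at or near the floor of 3 counts except in DZNep replicate 3, and no difference was detectable at this depth.

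With the replicate number as a block in the edgeR fit, all 8 tested members other than GNG4 passed an adjusted p of 0.05, 6 of them higher and 2 lower, beside 28.8% of all genes tested higher and 30.2% lower. Without the block and on the same threshold of p alone, 4 were higher and 0 lower, beside 19.1% and 21.8% of all genes. The block brought GNG12 to an adjusted p of 0.000133, GNG7 to 0.0166, GNG5 to 0.0212 and GNG10 to 0.0432. The calls at both thresholds were GNG2, GNG3 and GNG13 in both fits, beside 11.7% of all genes called higher and 14.3% lower with the block. GNG10 was higher in 3 of 4 pairs. The lowest DZNep library exceeded the highest Control library for 3 of the 8 members (19.5% of all genes), and the reverse held for 1 (19.4% of all genes).

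**Figure D2:**
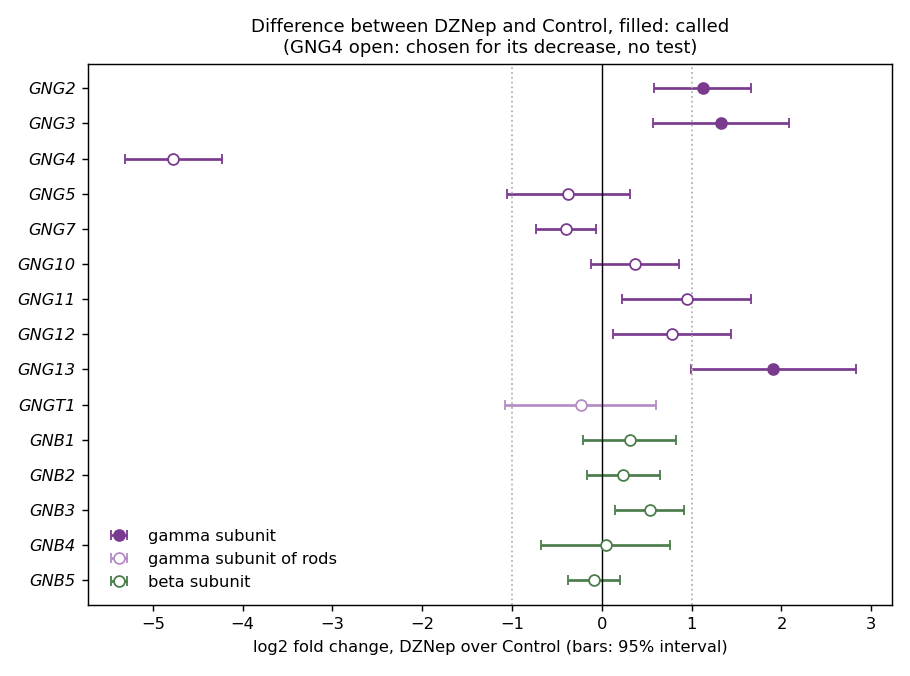
Log2 fold change of DZNep over Control (horizontal axis) with its 95% interval from the edgeR fit for the gamma subunits tested, the rod subunit GNGT1 and the 5 beta subunits. Filled points were called (GNG2 1.13, GNG3 1.33, GNG13 1.91), GNG4 at -4.77 is open because it was chosen for its decrease, and dotted lines mark -1 and 1.

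Levels of different genes were compared per length, as TMM-scaled CPM per kilobase of annotated exon. In the Control cells GNG5 had the highest mean level, 28.6 ± 11.3, followed by GNG10 (18.7 ± 6.05), GNG12 (14.2 ± 5.54), GNG4 (10.4 ± 1.17) and GNG7 (5.99 ± 0.58). GNG2 (1.74 ± 0.53), GNG11 (1.46 ± 0.63), GNG13 (0.55 ± 0.25), GNG3 (0.33 ± 0.11) and GNG8 (0.10 ± 0.09) were lower. In this order the ranges over libraries of neighbours overlapped, except between GNG4 and GNG7, GNG7 and GNG2, GNG11 and GNG13, and GNG3 and GNG8. The 4 most abundant members of the Control cells were thus not fully ordered by their spread, and GNG4 stood among them. Their order also depends on the length used, since 90.5% of the exon bases of GNG10 are shared with another gene. Over exon bases that belong to no other gene, GNG10 took 73.3% of the summed Control level, GNG5 13.2%, GNG12 5.21% and GNG4 4.10%.

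In the DZNep cells the mean levels were 24.3 ± 6.36 for GNG12, 24.3 ± 1.20 for GNG10 and 22.1 ± 7.11 for GNG5, with overlapping ranges. Over exon bases that belong to no other gene, GNG10 took 79.7% of the summed level, GNG12 7.64% and GNG5 7.57%. GNG7 (4.53 ± 0.62), GNG2 (3.79 ± 0.74), GNG11 (2.80 ± 0.94) and GNG13 (2.11 ± 0.92) formed a middle group in which the ranges of neighbours overlapped. GNG3 followed with 0.84 ± 0.17, and GNG4, with 0.38 ± 0.11, came below it in all 4 libraries. By its mean, GNG4 therefore went from the fourth to the ninth place of the 10 members on this scale. Its range overlapped that of GNG12 in the Control cells and that of GNG8 (0.15 ± 0.21) in the DZNep cells.

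As a share of the summed per-length level of the 10 genes, GNG4 went from 12.6% ± 1.40 to 0.45% ± 0.14. The share of GNG12 went from 17.2% ± 6.54 to 28.6% ± 7.72, that of GNG10 from 22.9% ± 7.27 to 28.5% ± 1.06 and that of GNG5 from 34.9% ± 13.8 to 25.8% ± 7.79. GNG2 went from 2.12% ± 0.63 to 4.46% ± 0.97 and GNG13 from 0.66% ± 0.30 to 2.49% ± 1.11. The summed level was 82.0 ± 2.36 (Control) and 85.3 ± 4.13 (DZNep), with overlapping values of 79.9 to 84.6 and 80.2 to 90.3. Without GNG4 it was 71.6 ± 2.44 and 84.9 ± 4.14, and the highest Control value (75.0) lay below the lowest DZNep value (79.8). These shares include GNG4, which was chosen by its decrease, and they are a description. The shares and the summed level also depend on the length used, since 90.5% of the exon bases of GNG10 are shared with the readthrough gene DNAJC25-GNG10. That gene averaged 0.448 normalized counts over the Control libraries and 0.443 over the DZNep libraries. When the length was restricted to exon bases that belong to no other gene, GNG10 took 73.3% and 79.7% of the sum and GNG4 took 4.10% and 0.119%.

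**Figure D3:**
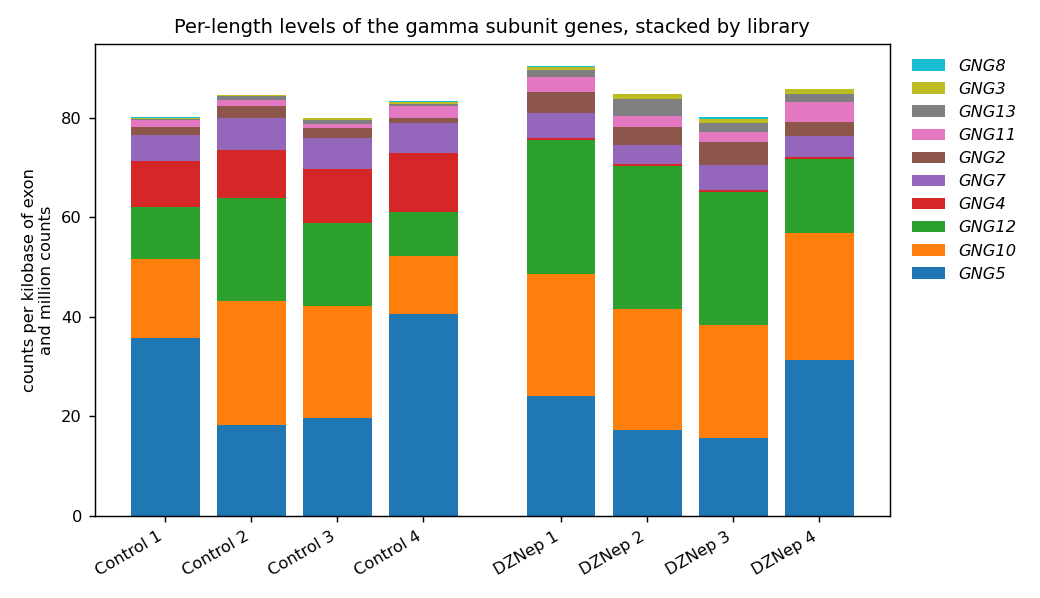
Per-length level (CPM per kilobase of exon, vertical axis from 0) of the 10 gamma subunit genes, stacked in each of the 8 libraries. With this length, of all annotated exon bases, the sums lie between 79.9 and 90.3 in all libraries. The red GNG4 layer is close to invisible in the DZNep libraries, and GNG5 is the tallest layer in Control replicates 1 and 4 and in DZNep replicate 4.

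Of the exon bases of GNG5, 9.75% are shared with other annotated genes. Most of these, 6.84%, lie in a noncoding gene on the same strand that has no row in the counts. SPATA1 shares 2.37% and had a log2 fold change of -0.52 (adjusted p = 0.475). RPF1, a ribosome biogenesis gene, shares 0.597% and had 0.79 (adjusted p = 0.00153). GNG2 shares 7.51% of its exon bases with a noncoding gene that had no count in any library. The exons of GNG4, GNG7, GNG8, GNG11 and GNG12 overlap those of no other annotated gene.

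The photoreceptor gamma subunits completed the family. GNGT1, the gamma subunit of rod transducin, stood at 543, 206, 241 and 641 in the Control and at 328, 310, 248 and 526 in the DZNep replicates, with a log2 fold change of -0.23 (SE 0.38, adjusted p = 0.654). Replicates 1 and 4 were again the high libraries of both groups. GNGT2, the gamma subunit of cones, had 1 count over the 4 Control and 34 over the 4 DZNep libraries, a ratio of 29.0 with an exact counting interval of 4.86 to 1179 (95%), and did not pass the filter. GNG14 was not analysed here.

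The beta subunits, with which the gamma subunits form dimers, differed little. None of the 5 genes was called, beside 24.2% of all genes called in either direction. At an unadjusted p-value under 0.05, 1 was higher and 0 lower (22.9% and 26.0% of all genes), and DESeq2 called 0. GNB3, the beta subunit of cones and taste cells, went from 123 ± 13.1 to 182 ± 17.1 without overlap, with a log2 fold change of 0.53 (SE 0.17, adjusted p = 0.0316) that was short of the fold threshold. GNB1, a widely expressed beta subunit, stood at 11061, 20015, 17470 and 10797 in the Control and at 20736, 18497, 20898 and 14898 in the DZNep replicates (log2 fold change 0.31, adjusted p = 0.313). GNB2 (0.24, adjusted p = 0.324), GNB4 (0.04, adjusted p = 0.930) and GNB5, which pairs with R7 family RGS proteins in place of a gamma subunit (-0.09, adjusted p = 0.625), had smaller log2 fold changes.

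Of 16 alpha subunit genes 13 were tested, and 3 rose and 3 fell, beside 10.6% of all genes called higher and 13.5% called lower. GNAT1, the alpha subunit of rod transducin, rose from 3.47 ± 1.35 to 71.0 ± 15.5 (log2 fold change 4.22, adjusted p = 2.61e-05). GNA15, a Gq family member of blood cells, rose from 19.0 ± 8.51 to 58.7 ± 11.7 (1.63, adjusted p = 0.00395), and GNA13 rose from 2967 ± 977 to 7086 ± 1684 (1.23, adjusted p = 0.00411). The alpha subunits that fell include GNAZ and GNAO1, both of the Gi family and best known from neurons. GNAZ fell from 1161 ± 140 to 320 ± 33.6 (-1.88, adjusted p = 1.94e-05) and GNAO1 from 399 ± 24.9 to 153 ± 19.5 (-1.41, adjusted p = 0.000104). GNAL, the olfactory-type alpha subunit, fell from 824 ± 149 to 417 ± 65.6 (-1.01, adjusted p = 0.00143), just past the fold threshold, and DESeq2 called 2 of the 3 lower.

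The 7 genes of prenylation and CaaX processing were all tested and none was called, beside 24.2% of all genes called in either direction. At an unadjusted p-value under 0.05, 2 were higher and 3 lower (22.9% and 26.0% of all genes), and DESeq2 called 0. RCE1, the protease that trims the box, went from 838 ± 75.4 to 1540 ± 175 (log2 fold change 0.85, adjusted p = 0.00092), and FNTB, the beta subunit of farnesyltransferase, from 473 ± 3.60 to 896 ± 132 (0.90, adjusted p = 0.000869). FNTA, the alpha subunit shared by farnesyltransferase and the geranylgeranyl-transferring enzyme, went from 2657 ± 442 to 1816 ± 207 (-0.58, adjusted p = 0.0164). GGPS1 and FDPS, which make the lipid donors, had log2 fold changes of -0.70 (adjusted p = 0.0142) and -0.60 (adjusted p = 0.00769). ICMT, the methyltransferase of the trimmed end, had -0.23 (adjusted p = 0.207) and PGGT1B, the beta subunit of the enzyme that adds geranylgeranyl groups, 0.03 (adjusted p = 0.868).

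Among 13 assembly chaperones 12 were tested and none was called, again beside 24.2% of all genes. At an unadjusted p-value under 0.05, 4 were higher and 0 lower (22.9% and 26.0% of all genes), and DESeq2 called 0. PDCL, the phosducin-like partner of the cytosolic chaperonin in beta-gamma assembly, had a log2 fold change of 0.45 (adjusted p = 0.0128), RIC8A, a chaperone of alpha subunits, 0.60 (adjusted p = 0.0038) and DNAJC14, a chaperone that binds gamma subunits, 0.92 (adjusted p = 0.0176). Of 8 genes of R7 RGS complexes 6 were tested, and 1 was called higher and 0 lower, beside 10.6% and 13.5% of all genes. It was GPR158, the orphan receptor that recruits RGS7 with GNB5, which rose from 10.1 ± 5.10 to 35.6 ± 11.2 (1.78, adjusted p = 0.0098). RGS7 itself went from 111 ± 21.7 to 57.2 ± 11.1 (-0.99, adjusted p = 0.00768), short of the fold threshold. RGS11 had 59 counts over the Control and 3 over the DZNep libraries, a ratio of 23.1 with an exact counting interval of 7.52 to 115 (95%), and was not tested.

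Of 29 effectors and binders of beta-gamma dimers 23 were tested, and 3 rose and 2 fell, beside 10.6% and 13.5% of all genes, so neither share stood far from that of all genes. ADCY1, a neuronal adenylyl cyclase that beta-gamma dimers inhibit, fell from 1407 ± 284 to 120 ± 12.7 (log2 fold change -3.58, adjusted p = 3.3e-06), the largest decrease among the tested genes of the lists. ADCY3, the cyclase of olfactory cilia, fell from 1601 ± 686 to 531 ± 97.3 (-1.62, adjusted p = 0.00164). CACNA1A, the pore of P/Q-type calcium channels, rose from 7.24 ± 6.69 to 36.1 ± 3.85 (2.28, adjusted p = 0.00504), and PIK3R5, a regulatory partner of the beta-gamma activated kinase PIK3CG, rose from 40.2 ± 12.4 to 120 ± 12.2 (1.55, adjusted p = 0.00103). PIK3R6, the other such partner, had 3 counts over the Control and 78 over the DZNep libraries, a ratio of 22.2 with an exact counting interval of 7.31 to 110 (95%), and was called higher (adjusted p = 0.000755). Over all lists outside the 10 members, 67 genes were tested, 7 were called higher and 5 lower, beside 10.6% and 13.5% of all genes tested, with a median log2 fold change of -0.09 beside -0.03. The count of higher genes thus lay at the share of all genes.

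**Figure D4:**
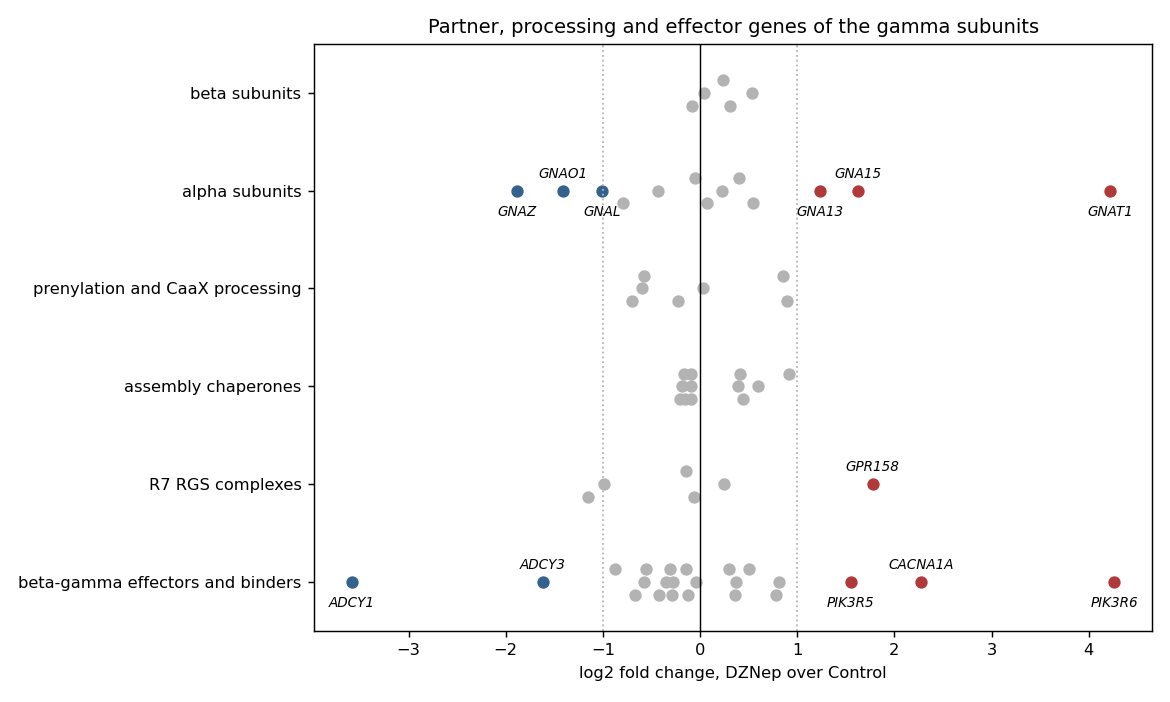
Log2 fold change of DZNep over Control (horizontal axis) of the tested genes in 6 lists of partner, processing and effector genes, with genes called higher in red, called lower in blue and not called in grey, and dotted lines at -1 and 1. Called genes lie among the alpha subunits (3 higher and 3 lower), the effectors (3 higher and 2 lower) and the R7 RGS complexes (1 higher), and none among the beta subunits, the prenylation genes and the chaperones.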

How the data were processed

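RNAseq of 8 HEK293T libraries was analysed, grouped by the treatment in the labels. Per the methods and the submitters' processing notes, paired reads were trimmed (Trimmomatic 0.36) and aligned to GRCh38 (STAR 2.5.2b), and featureCounts (Subread 1.5.2) counted uniquely mapped reads in exons. The tables the authors deposited hold raw counts for 57500 genes and a signal in normalized counts for 19118 genes, obtained by scaling each library with a single size factor. The annotation release, library type and strandedness are not given in the sources used here. The methods name RPMI medium and the labels name DMEM.

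Counts were tested with edgeR 4.0.16 (quasi-likelihood test, TMM, filterByExpr, 19171 genes, Benjamini-Hochberg adjustment) in R 4.3.3. Called genes passed an adjusted p-value of 0.05 and a log2 fold change beyond 1 or -1, the thresholds of the study, which used DESeq2. DESeq2 1.42.0, median-ratio size factors, library sizes alone, 2 other filters on low counts, the replicate block, no fold threshold, other gene lengths and leaving out each library were alternatives, and the length restricted to unshared exon bases was added after seeing the data. The fit was tested on simulated data. Symbols, gene lengths and coordinates come from GENCODE (symbols for 56410 identifiers) and promoters from RefSeq (all 10 members matched).

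Totals of 25043058 to 44902779 counts set the precision. Exact counting intervals and floors (3 counts) cover counting error only. The 95% intervals of log2 fold changes come from the edgeR fit and include the spread between libraries. Replicates differed by more than sampling noise, and p-values measure the spread between these 4 samples per group. After subtraction of the group means, Control and DZNep libraries of equal number were correlated across genes (r of 0.13, 0.45, 0.38 and 0.63 for numbers 1 to 4), and the numbers, which the labels give, were taken to pair the libraries because each r was above 0.1. Some libraries of unequal number were also correlated (0.47 for Control 1 with DZNep 4, 0.36 for Control 2 with DZNep 3 and 0.30 for Control 3 with DZNep 2), so the correlation followed the separation of replicates 1 and 4 from 2 and 3 as well as the number.

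The members and gene lists were chosen with earlier results of these data known. Named genes are the members, the other gamma and the beta subunits, up to 3 called genes of each list and direction without overlap between the groups, tested genes that overlap or neighbour a member, and the 3 genes with profiles closest to GNG4. Any other gene was named after its values were seen. Protein sequences were not used here, so a planned description of protein lengths and identities was replaced by coding sequences.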

Additional observations from a re-analysis of the deposited data

Results flagged for a closer look

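Of 34 groups of 4 libraries examined for a value far from the other 3, 3 held one, where chance gives about 1 in 20. GNG12 stood at 2698 normalized counts in DZNep replicate 4, below 4800 to 5184 in the other DZNep libraries, and its gap to them was 0.846 of the range. GNG13 stood at 131 in DZNep replicate 2, above 55.3 to 67.4 in the others, with a gap of 0.841 of the range. GNGT2 stood at 1.07 in Control replicate 4, which is 1 count, and at 0 in the other Control libraries. With the other values tied at 0 its gap is always the whole range, so the rate of 1 in 20 does not apply to it.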

How the results depend on the processing

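The log2 fold changes of GNG2, GNG3, GNG5, GNG7, GNG10 and GNG13 kept their direction, and whether they were called at both thresholds, under other normalizations, filters and tests, where they could be computed. On p alone, GNG7 (adjusted p = 0.0332) and GNG12 (0.0281) passed with DESeq2. In the edgeR fits, GNG12 also passed with no filter on low counts (0.0478) and with at least 10 counts in every library (0.0486). With the replicate block, GNG5, GNG7, GNG10 and GNG12 passed (0.0212, 0.0166, 0.0432 and 0.000133). The filter on at least 10 counts in every library removed GNG3 and GNG13. It left 1 member called higher, 3 genes of the lists and 1141 of all 15870 genes tested. With library sizes alone, GNG11 was called higher (1.04, adjusted p = 0.0115). With each library left out in turn, log2 fold changes ranged from 0.94 to 1.31 for GNG2, from 0.72 to 1.27 for GNG11, from 0.60 to 1.02 for GNG12 and from -4.93 to -4.59 for GNG4. In these fits 3 to 4 members other than GNG4 were called higher and 0 lower. Beside them, 1936 to 2383 of all genes were called higher and 2322 to 2993 lower, out of 19611 to 19922 tested. The replicate block gave 3 members higher and 0 lower and 7 genes of the lists higher and 5 lower, beside 11.7% and 14.3% of all genes. It changed no call at both thresholds among the members. Shares of the summed level moved with the length used, and over the longest transcript GNG2 took 3.14% (Control) and 6.67% (DZNep) and GNG10 24.8% (DZNep). The cause of these changes was not tested beyond the genes and libraries that each alternative leaves out. No tested member reversed its direction. Leaving out 1 library turned the sign of several genes of the lists whose log2 fold changes were near 0. Among them were GNGT1 (-0.48 to 0.07), GNB4 (-0.14 to 0.39) and PGGT1B (-0.03 to 0.07), none of which passed a threshold.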
